A study of Rattus norvegicus with 10 samples.

Results

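The genes described here inactivate steroid hormones in the liver or stand close to that task: Hsd17b2, Srd5a1, Akr1d1, Hsd17b4, Hsd17b10 and Ugt2b1. Members were all probe sets that the platform's gene table assigns to only 1 of these 6 genes. This gave 6 probe sets for 5 genes, out of 14217 genes with a probe set of their own. Srd5a1 was not analysed here. The genes were chosen by their measured difference between the diets, that of Hsd17b2 first, together with their role. Their values under the diets are therefore given as a description and without a test.

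Livers of 10 male rats aged 13 weeks were measured, with 1 array for each liver. The N-group (5 livers, animals 1, 4, 7, 10 and 13) was kept for 30 days on a diet of 30 wt% instant noodle with its seasonings, in which fat gave 26% of the energy. The C-group (5 livers, animals 2, 5, 8, 11 and 14) ate that diet with the seasonings left out. Both groups were given about 60 g of diet per kg body weight and day by paired feeding under 12 h of light and 12 h of dark, the noodles and the fat content were common to both, and the labels name no strain. Values are log2 signals as deposited. The array codes of all N-group livers begin with A and those of all C-group livers with B, and the effects of this code and of the diet cannot be told apart.

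The liver clears sex steroids and glucocorticoids by reducing or oxidising them and then joining them to glucuronic acid or sulfate. Hsd17b2 encodes a membrane-bound dehydrogenase of the endoplasmic reticulum that oxidises estradiol to estrone and testosterone to androstenedione, which are weaker hormones. Akr1d1 encodes the reductase of the double bond in the steroid A ring and serves both hormone clearance and bile acid synthesis. Ugt2b1 encodes a glucuronosyltransferase for steroids and foreign compounds. Hsd17b4 and Hsd17b10 carry the dehydrogenase name but are best known for other work, Hsd17b4 in peroxisomal beta-oxidation and Hsd17b10 in mitochondrial isoleucine breakdown and tRNA processing.

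The sequences around the start of 3 of the 5 measured members (Ugt2b1, Hsd17b4 and Hsd17b10) were available from RefSeq on the GRCr8 build, as windows of 250 bases before to 50 after the gene's start. They are shown because clock genes were among those most like Hsd17b2 in pattern, as given further on without a test. No window of Hsd17b2 itself was available. The 3 members shown did not share its pattern, with r to Hsd17b2 of -0.02 (Ugt2b1), -0.04 (Hsd17b4) and -0.16 (Hsd17b10). These windows can be read for the motifs of clock factors. Capitals mark matches, on either strand, to 3 motifs. CACGTG is the E box, bound by Clock and Bmal1. TTATGNAA is a looser form of the D box bound by Dbp, with any base at N. AGGTCA is the core bound by many nuclear receptors, Nr1d1 among them.
Ugt2b1, chr14:21378632-21378931, plus strand: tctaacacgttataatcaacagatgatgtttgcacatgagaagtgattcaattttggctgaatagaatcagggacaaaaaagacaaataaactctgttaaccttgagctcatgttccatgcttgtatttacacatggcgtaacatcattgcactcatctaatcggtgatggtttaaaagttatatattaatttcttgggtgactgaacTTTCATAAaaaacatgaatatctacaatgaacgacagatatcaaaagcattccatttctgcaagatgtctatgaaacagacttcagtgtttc
Hsd17b4, chr18:45515177-45515476, plus strand: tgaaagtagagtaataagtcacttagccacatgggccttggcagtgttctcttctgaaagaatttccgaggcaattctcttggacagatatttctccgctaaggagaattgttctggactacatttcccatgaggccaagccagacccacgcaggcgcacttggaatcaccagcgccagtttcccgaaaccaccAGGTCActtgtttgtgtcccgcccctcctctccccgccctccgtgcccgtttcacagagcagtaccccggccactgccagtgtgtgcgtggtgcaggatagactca
Hsd17b10, chrX:24568301-24568600, plus strand: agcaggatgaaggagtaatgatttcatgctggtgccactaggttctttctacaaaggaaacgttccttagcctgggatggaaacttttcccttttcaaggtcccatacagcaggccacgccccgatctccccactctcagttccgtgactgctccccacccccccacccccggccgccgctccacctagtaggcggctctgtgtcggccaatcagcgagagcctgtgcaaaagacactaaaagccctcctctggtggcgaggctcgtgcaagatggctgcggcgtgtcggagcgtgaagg
The Ugt2b1 window held 1 match to TTATGNAA on the other strand, with A at N, starting 42 bases before the gene's start. The Hsd17b4 window held 1 match to AGGTCA, starting 56 bases before that gene's start. The Hsd17b10 window held 0 matches to the 3 motifs. Of all 33469 windows of this length, 6.42% held CACGTG, 3.66% held TTATGNAA and 16.2% held AGGTCA. No motif overlapped another in these windows, and a match shows only that the letters are there.

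The arrays resembled each other, and the liver label fitted the markers. Array medians lay between 6.472 and 6.477, pairwise correlations between 0.9901 and 0.9975, and 0 pairs of arrays were identical. Among the deposited values, 81.6% of genes had an SD at or under 0.01 over the 10 livers and are called near-constant here, which left 2613 varying genes. Of the members, Hsd17b4 was near-constant, and 4 genes with 5 probe sets varied. Hepatocyte markers (5 of 6 measured) had a mean signal between 13.36 and 13.45 in N-group livers and between 13.30 and 13.47 in C-group livers. Brain markers, examined because the extraction text speaks of brain, lay between 6.31 and 6.46 in N-group livers and between 6.31 and 6.39 in C-group livers, and 5 of the 6 were under the array medians. Markers of 6 further cell types (Kupffer, endothelial, stellate, bile duct, lymphocyte and erythroid) differed between the groups by 0.09 or less in mean signal. All 5 measured Kupffer cell markers varied, but only 1 of 4 endothelial, 2 of 5 stellate, 1 of 3 bile duct, 0 of 3 lymphocyte and 1 of 2 erythroid markers did, so that for these 5 types a change could hardly appear in the values.

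Hsd17b2 was lower in the livers of the seasoned diet. Its log2 signal was 9.86, 10.27, 9.98, 11.59 and 10.87 in N-group animals 1, 4, 7, 10 and 13, against 12.41, 12.65, 12.56, 11.52 and 12.42 in C-group animals 2, 5, 8, 11 and 14. Control animal 11 lay below seasoned animal 10, by 0.08, so the groups overlapped in that pair, and the other 4 livers of each diet were apart. The mean was 10.52 ± 0.72 in the N-group and 12.31 ± 0.46 in the C-group (SD, 5 livers each), a difference of -1.79 ± 0.37 (SE), or 3.47-fold lower on the scale of these signals. Among the 14217 genes this was the fourth largest difference in size, behind 3 others that were also lower in the N-group. The rank is a description only, since the gene was chosen by this difference and 81.6% of the genes were near-constant. In a bulk liver sample, fewer cells that express a gene and less RNA per cell cannot be told apart.

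The difference in Hsd17b2 was larger among the animals with lower numbers. The livers were parted into animals 1 to 7 (3 seasoned and 2 control livers) and animals 8 to 14 (2 seasoned and 3 control livers), a place taken from earlier results of these data. The parting itself was not tested here, and no batch is labelled. The array position number rises with the animal number, from 2 to 6 in the N-group and from 1 to 5 in the C-group. Within a group, the effects of animal order and array position cannot be told apart. Within animals 1 to 7 the mean was 10.04 in the N-group and 12.53 in the C-group, a difference of -2.49. Within animals 8 to 14 it was 11.23 in the N-group and 12.17 in the C-group, a difference of -0.93. That C-group mean holds control animal 11 (11.52), which lay below control animals 8 and 14 (12.56 and 12.42). With the parting as a block the difference was -1.71 ± 0.37. Leaving out any 1 liver gave differences between -2.06 (without seasoned animal 10) and -1.63 (without seasoned animal 1). The change of the difference between the 2 sets was not tested.

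**Figure D1:**
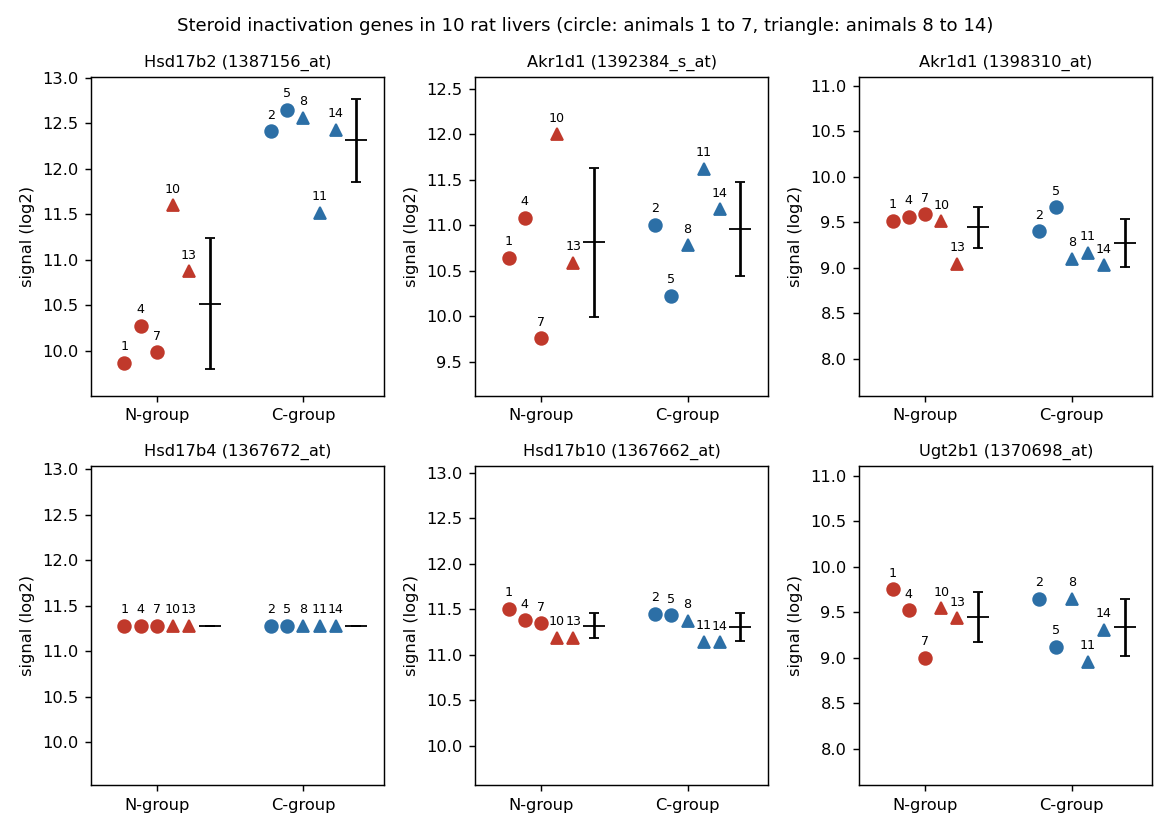
Log2 signal of each liver (vertical axes, all spanning the same number of log2 units) for the 6 probe sets, with N-group livers on the left and C-group livers on the right of each panel. Numbers are animals, circles are animals 1 to 7, triangles animals 8 to 14, and bars give the mean ± SD of 5 livers. Hsd17b2 parts the diets except for seasoned animal 10 (11.59) and control animal 11 (11.52), Hsd17b4 is flat, and the other probe sets overlap.

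The other members overlapped between the diets. Ugt2b1 was at 9.75, 9.52, 8.997, 9.54 and 9.43 in N-group animals 1, 4, 7, 10 and 13, against 9.65, 9.12, 9.65, 8.95 and 9.30 in C-group animals 2, 5, 8, 11 and 14. Each diet held livers near the top and near the bottom of its range. The difference was 0.11 ± 0.18 (SE), from 9.45 ± 0.28 in the N-group and 9.34 ± 0.31 in the C-group (SD, 5 livers each). The Ugt2b genes are close relatives, and binding of related transcripts to this probe set was not tested. Ugt2b1 did not share the livers of Hsd17b2, with a Pearson r of -0.02 between the probe sets over the 10 livers.

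Akr1d1 had 2 probe sets, and they disagreed on which livers were high. Probe set 1392384_s_at was at 10.64, 11.09, 9.76, 12.00 and 10.59 in N-group animals 1, 4, 7, 10 and 13, against 11.01, 10.23, 10.78, 11.62 and 11.18 in C-group animals 2, 5, 8, 11 and 14. The highest and the lowest of the 10 livers, animals 10 and 7, were both seasoned. Its difference was -0.15 ± 0.42. It was -0.12 among animals 1 to 7, while animals 8 to 14 gave 0.10. Probe set 1398310_at was at 9.52, 9.56, 9.59, 9.51 and 9.04 in N-group animals 1, 4, 7, 10 and 13, against 9.40, 9.66, 9.09, 9.16 and 9.03 in C-group animals 2, 5, 8, 11 and 14. Here seasoned animal 13 stood below the rest of its group, at the level of the 3 lower controls. Its difference was 0.17 ± 0.15, of the opposite sign. Over the 10 livers r between both probe sets was -0.28. The suffix _s_at is the manufacturer's mark for probe sets that may match more than 1 transcript, and whether 1392384_s_at binds others was not tested.

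The variation of 1392384_s_at was shared with Ugt2b15, a glucuronosyltransferase that, like Ugt2b1, takes steroids. Of 2612 varying genes other than Akr1d1, Ugt2b15 had the highest r to this probe set, 0.973 over the 10 livers. Ugt2b15 was at 10.92, 11.04, 10.33, 11.61 and 10.86 in N-group animals 1, 4, 7, 10 and 13, against 11.06, 10.50, 11.11, 11.48 and 11.32 in C-group animals 2, 5, 8, 11 and 14. Animals 10, 11 and 14 were the highest for both genes, and animals 7 and 5 the lowest. The leading gene for 1398310_at was instead Crym (r = 0.931), a thyroid hormone-binding protein, while Ugt2b15 had r = -0.45 to it. Ugt2b15 and Crym were picked out with their values in view. These r values describe 10 livers that share 2 diets and are the extremes of many comparisons.

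**Figure D2:**
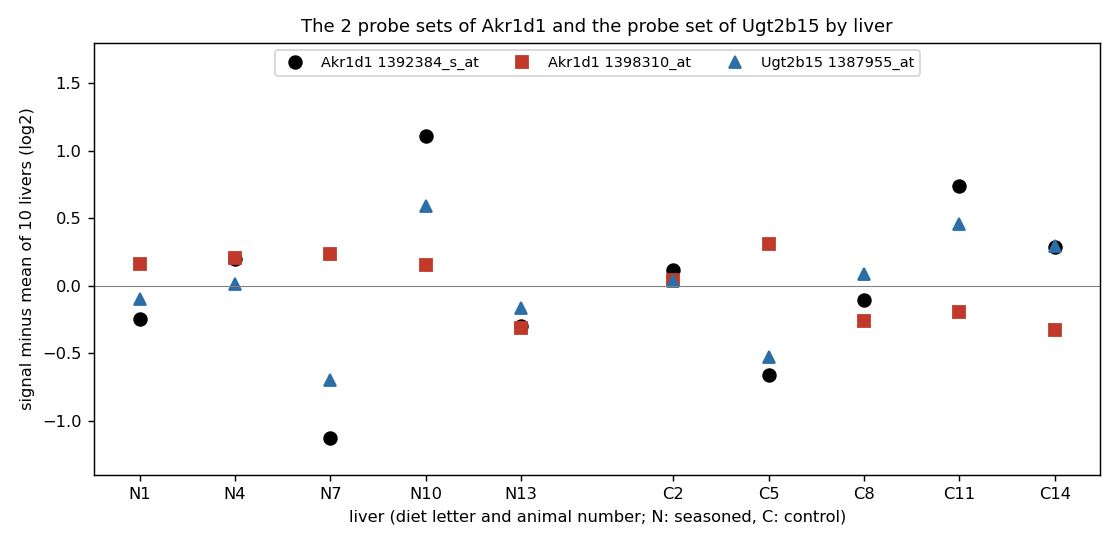
Log2 signal of each liver minus the mean of the 10 livers (vertical axis) for both Akr1d1 probe sets and for Ugt2b15, with the 5 N-group livers left and the 5 C-group livers right. Points of 1392384_s_at and Ugt2b15 lie on the same side of 0 in most livers (r = 0.973), and those of 1398310_at do not follow them.

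Hsd17b10 was lower in the animals with the highest numbers of both diets. It was at 11.50, 11.38, 11.35, 11.19 and 11.19 in N-group animals 1, 4, 7, 10 and 13, against 11.45, 11.43, 11.37, 11.14 and 11.14 in C-group animals 2, 5, 8, 11 and 14. The diets covered nearly the same range, and their difference was 0.02 ± 0.09. It was -0.03 within animals 1 to 7, -0.03 within animals 8 to 14 and -0.03 ± 0.05 with these sets as a block, of the opposite sign. Animals 10, 11, 13 and 14 were the lowest, and control animal 8 lay with animals 1 to 7. Array position rises with animal number in each group, so the effects of both cannot be told apart. Animals 8 to 14 were below animals 1 to 7 by 0.22 in the N-group (means of 11.19 and 11.41) and by 0.22 in the C-group (means of 11.22 and 11.44), as a description without a test, and the C-group mean of animals 8 to 14 holds the higher animal 8. Probe set 1398310_at of Akr1d1 had the same direction, with animals 8 to 14 below animals 1 to 7 by 0.28 in the N-group and by 0.44 in the C-group. Its N-group value rests on seasoned animal 13 (9.04). Seasoned animal 10 (9.51) was level with seasoned animals 1, 4 and 7 (9.52, 9.56 and 9.59). Hsd17b2 did not share this direction in both diets. Its animals 8 to 14 were higher than animals 1 to 7 by 1.19 in the N-group and lower by 0.36 in the C-group. That lower C-group mean of Hsd17b2 rests on control animal 11, at 11.52. Control animals 8 and 14 were at 12.56 and 12.42, and control animals 2 and 5 at 12.41 and 12.65.

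Hsd17b4 was at 11.28 in each of the 10 livers, with an SD of 0.00013, and gives no measurable difference. In the fit over all genes 0 of the 5 measured members passed at an adjusted p under 0.05, as did 0 of the 14217 genes (0%), by limma. At an unadjusted p under 0.05 there was 1 of 5, Hsd17b2, beside 4.71% of all genes. In 0 of the 6 probe sets were the diets without overlap, beside 0.77% of all probe sets. Since the diet difference chose the members, nothing is read from these counts.

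The genes whose pattern over the livers was most like that of Hsd17b2 included 3 clock genes. Among 2612 varying genes the highest Pearson r to Hsd17b2 over the 10 livers belonged to Nr1d2 (0.989), Il1r1 (0.982), Dbp (0.967), Enpp2 (0.961) and Nr1d1 (0.960). Nr1d1 and Nr1d2 encode the REV-ERB repressors of the circadian clock and Dbp encodes a rhythmic transcription factor of clock output. Il1r1 is the interleukin 1 receptor, and Enpp2 encodes autotaxin, a secreted enzyme that makes lysophosphatidic acid. At the other end of the ranking Bmal1, the clock activator whose gene the REV-ERB proteins repress, had the lowest r of all, -0.989. With each diet's mean removed r was 0.957 for Nr1d2, 0.942 for Nr1d1, 0.928 for Il1r1, 0.870 for Enpp2, 0.870 for Dbp and -0.958 for Bmal1. These r values are extremes of many comparisons over the same 10 livers and carry no test.

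Dbp and Bmal1, named with the livers that stood apart for Hsd17b2 in view, are described here by liver. Dbp was at 5.97, 5.94, 6.03, 7.05 and 6.94 in N-group animals 1, 4, 7, 10 and 13, against 9.08, 9.43, 9.32, 7.28 and 9.09 in C-group animals 2, 5, 8, 11 and 14. Bmal1 was at 7.72, 7.74, 7.72, 6.92 and 7.27 in the same N-group animals, against 6.21, 6.24, 6.08, 6.90 and 6.23 in the same C-group animals. In both genes control animal 11 was the control nearest to the N-group and seasoned animal 10 was the N-group liver nearest to the C-group, as for Hsd17b2. Since both genes have an extreme r to Hsd17b2 over the same livers, this shared order adds no support. The part of the clock difference in the difference of Hsd17b2 was not tested. Dbp levels under 6.47 and most control levels of Bmal1 lay below the array medians, so that the size of their differences is uncertain.

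Of the 5 genes most like Hsd17b2, 4 had start windows in the RefSeq table. CACGTG was found in 1 of the 2 windows of Nr1d1, starting 191 bases before that start, and AGGTCA in the Nr1d2 window. The windows of Dbp and Il1r1 held 0 matches to the 3 motifs.

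The gene beside Hsd17b2 had a similar pattern. In the RefSeq gene order of GRCr8, Sdr42e1 is the protein-coding gene next to Hsd17b2 on one side and Mphosph6 on the other. Sdr42e1, which like Hsd17b2 is named as a short-chain dehydrogenase, was at 7.52, 7.51, 7.86, 8.27 and 8.21 in N-group animals 1, 4, 7, 10 and 13, against 8.58, 8.72, 8.63, 8.33 and 8.61 in C-group animals 2, 5, 8, 11 and 14. All N-group livers lay below all C-group livers, and 0.77% of all probe sets had no overlap of the diets in either direction. Control animal 11 and seasoned animal 10 were again neighbours in the order, which goes with the high r of Sdr42e1 to Hsd17b2. The difference was -0.70 ± 0.17, made up of -1.02 in animals 1 to 7 and -0.28 in animals 8 to 14. Its r to Hsd17b2 was 0.953, the seventh highest of 2612, and 0.854 with each diet's mean removed. Mphosph6 (SD 0.00035), and Plcg2 and Cdh13 as the next genes outward, were near-constant. Sdr42e1 was picked out with its values in view, and values of neighbouring genes were taken for Hsd17b2 alone.

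**Figure D3:**
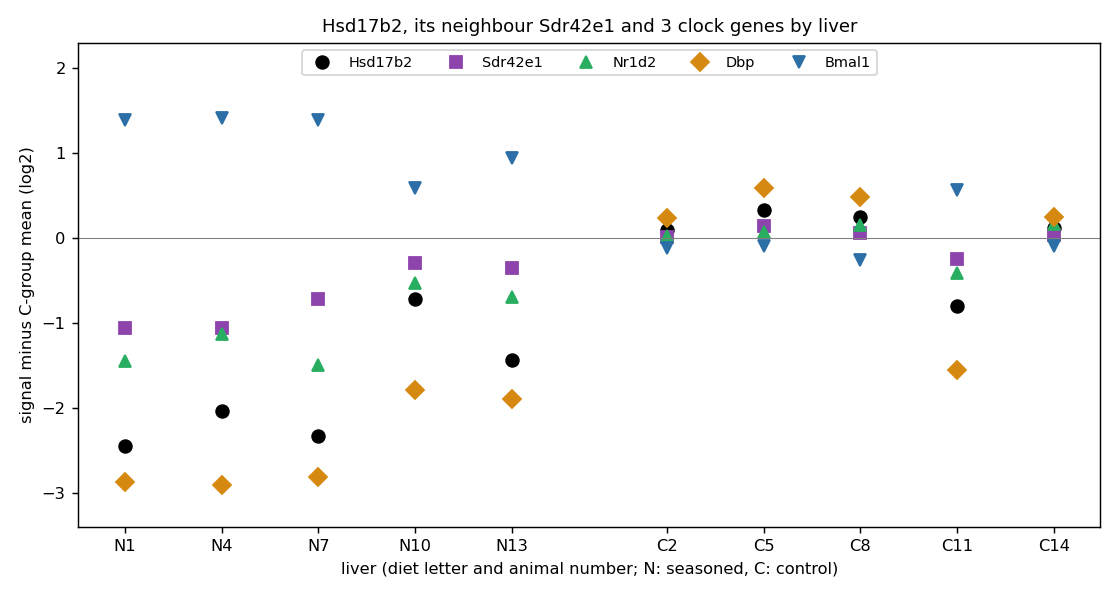
Log2 signal of each liver minus the mean of the C-group (vertical axis) for Hsd17b2, its neighbour Sdr42e1 and the clock genes Nr1d2, Dbp and Bmal1, with the 5 N-group livers left and the 5 C-group livers right. Seasoned animals 1, 4 and 7 lie farthest from the controls, and control animal 11 moves toward the N-group in all 5 genes.

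Beyond the members, 82 genes of steroid metabolism and of the members' other roles were listed by function, of which 68 were measured and 36 varied. By limma over all genes 0 of the 68 rose and 0 fell, beside 0% of all genes in either direction. At an unadjusted p under 0.05 there were 6 of the 68, beside 4.71% of all genes. Of the 36 varying genes there were 3, beside 12.1% of all varying genes, and the Welch statistic called 0 after adjustment. The median difference of the 36 varying genes was 0.003, with 19 above and 17 below 0, against 0.017 for all 2613 varying genes. The varying genes ranged from -0.53 to 0.56. Hsd17b2, at -1.79, was chosen by its difference, so nothing is read from its larger size beside them.

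Of the other 17beta-hydroxysteroid dehydrogenases 8 of 9 were measured and 4 varied, and 0 passed. Hsd17b7, which forms estradiol and also serves cholesterol synthesis, was at 7.70 ± 0.14 in the N-group and 7.39 ± 0.25 in the C-group (SD, 5 livers each). Its difference was 0.31 ± 0.12 (SE, adjusted p = 0.996 by limma). It was 0.06 in animals 1 to 7 but 0.52 in animals 8 to 14. Hsd17b13, a lipid droplet protein, was near-constant at 9.60.

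Of the other steroid reductases and dehydrogenases 12 of 15 were measured and 8 varied, 6 with a positive and 2 with a negative difference, and 0 passed. Hsd11b2, which inactivates corticosterone, was at 7.34 ± 0.35 in the N-group and 6.85 ± 0.29 in the C-group (difference 0.49 ± 0.20, adjusted p = 0.999 by limma). Hsd11b1, which regenerates corticosterone in hepatocytes, was at 12.31 ± 0.09 in the N-group and 12.20 ± 0.10 in the C-group (difference 0.11 ± 0.06). Both differences were above 0 within each animal set, at 0.46 and 0.30 for Hsd11b2 and 0.22 and 0.03 for Hsd11b1 in animals 1 to 7 and 8 to 14. The lowest Hsd11b2 level, 6.45 in control animal 11, lay below the array medians, so the size of its difference is uncertain.

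Of the conjugating enzymes, 7 of 13 glucuronidation genes and all 9 sulfation genes were measured, and 3 and 4 of them varied. The 3 varying genes of the glucuronidation list were below 0 and 0 passed, while the member Ugt2b1, outside that list, was at 0.11 ± 0.18. Ugp2, which makes UDP-glucose, was at 12.23 ± 0.10 in the N-group and 12.46 ± 0.23 in the C-group (difference -0.23 ± 0.11). Ugt2b10 differed by -0.26 ± 0.15 and Ugt2b15 by -0.14 ± 0.26. The sulfation genes had differences between -0.07 and 0.06. Ugt2b35, Sult1b1 and Papss1 had the smallest p in their lists together with Ugp2, but were near-constant, with differences of 0.00015, 0.00026 and 0.00027 that have no measurable size.

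The largest negative difference of the lists was that of Por, the reductase that passes electrons to microsomal P450s. It was at 7.82, 7.67, 7.61, 7.53 and 7.69 in N-group animals 1, 4, 7, 10 and 13, against 8.43, 8.51, 8.54, 7.41 and 8.08 in C-group animals 2, 5, 8, 11 and 14. Control animal 11 was the lowest of all 10 livers, and the other 4 controls lay above every seasoned liver. The difference was -0.53 ± 0.21 (adjusted p = 0.996 by limma). Animals 1 to 7 gave -0.77 and animals 8 to 14 gave -0.40. Of the steroid-hydroxylating P450s in that list of 14, of which 13 were measured and 8 varied, Cyp2c12, the form typical of female rat liver, differed by 0.33 ± 0.28. Cyp2c11, the male form, was near-constant at 13.45.

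Of the steroid receptors and carriers 8 of 9 were measured and 2 varied. Nr3c1, the glucocorticoid receptor, was at 9.23 ± 0.22 in the N-group and 9.53 ± 0.25 in the C-group (difference -0.31 ± 0.15, adjusted p = 0.999 by limma), with -0.22 and -0.26 within animals 1 to 7 and 8 to 14. Esr1, an estrogen receptor, was near-constant at 6.16, under the array medians. Among 13 partners of the members in peroxisomal beta-oxidation, mitochondrial tRNA processing, isoleucine breakdown and bile acid synthesis, 11 were measured and 7 varied. Amacr, which turns the side chains of branched fatty acids and bile acid precursors for peroxisomal oxidation, differed by -0.19 ± 0.10. Animals 1 to 7 gave 0.02 and animals 8 to 14 gave -0.41. Ehhadh, a bifunctional enzyme of the same organelle, differed by 0.17 ± 0.17, with 0.21 and -0.05 within these sets.

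**Figure D4:**
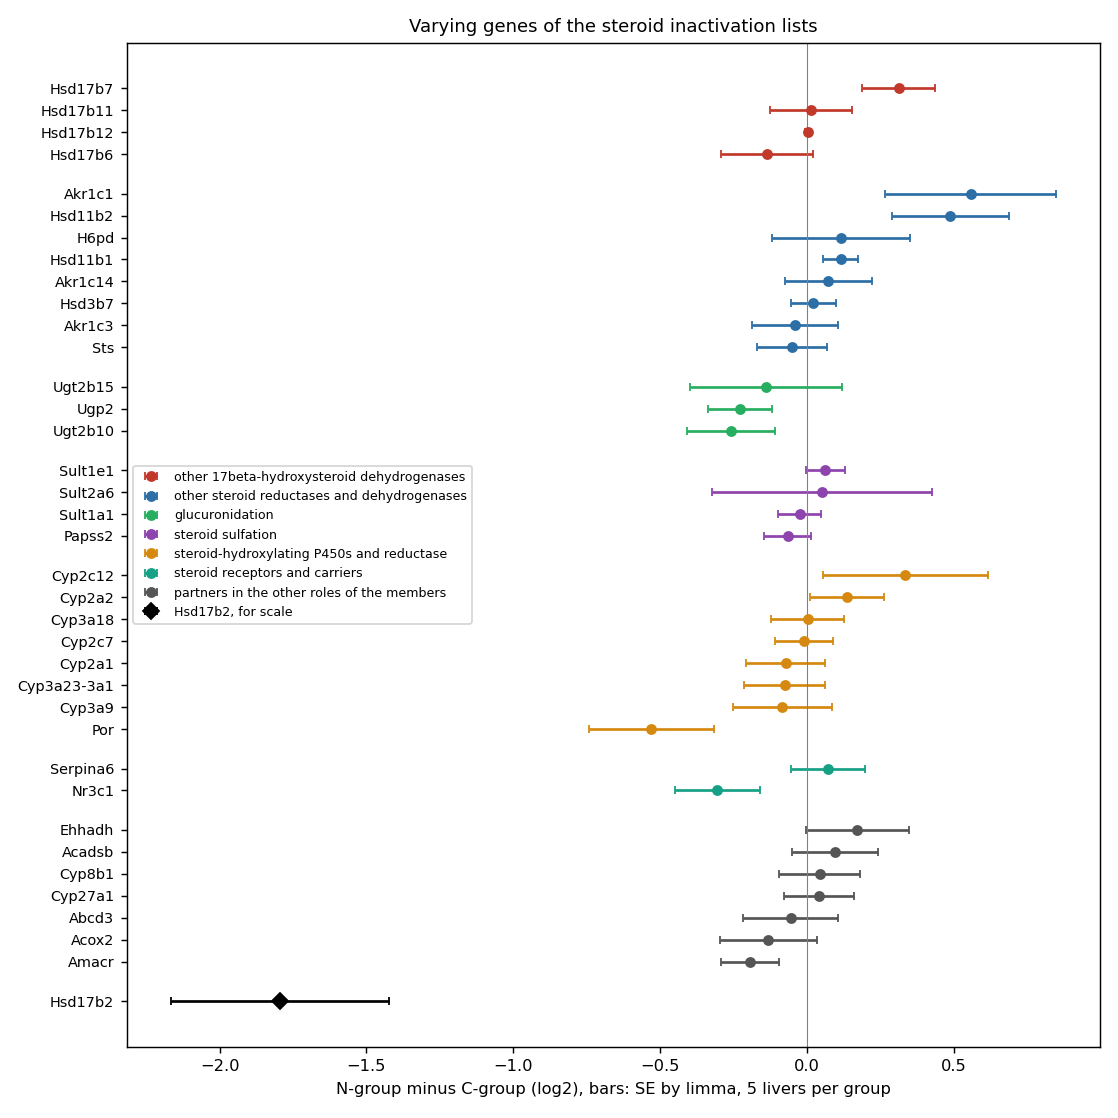
Difference between the diets (horizontal axis, N-group minus C-group in log2 units, bars give the SE of 5 livers per group) for the 36 varying genes of the 7 lists, coloured by list, with Hsd17b2 at the bottom for scale. The list genes lie between -0.53 (Por) and 0.56 (Akr1c1), and Hsd17b2 lies at -1.79.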

How the data were processed

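Expression in 10 rat livers was measured on arrays, with biotin-labelled cRNA from 100 ng of total RNA per the labels' protocols. The values deposited by the authors are log2 signals of probe sets. Their summary and normalization are not given in the labels, and the log base was read from the range (4.787 to 14.34). Precision is limited by having 5 arrays per diet. All 57 control probe sets were dropped from the 31099. The platform table gave 20826 probe sets 1 gene, 436 several and 9780 none, and symbols were updated by gene identifier through GRCr8 (20758 matched). The probe set with the highest mean stood for a gene (14217 genes). N-group minus C-group was fitted with limma 3.58.1 (lmFit, eBayes, two-sided, R 4.3.3) over all genes, or all probe sets for the members, with Benjamini-Hochberg adjustment and no covariate. Varying genes had an SD above 0.01 over the 10 livers. The fit was tested on simulated data. The members, lists and alternatives were chosen with earlier results of these data known. Named were the members, the 2 genes of each list with the smallest p, the 5 genes with the highest r to Hsd17b2, Dbp and Bmal1. Picked out with their values in view were Sdr42e1, Mphosph6, Plcg2, Cdh13, Ugt2b10, Ugt2b15, Crym, Akr1c1 and Cyp2c11. Animals are numbered separately in the titles, so the rat is the unit of the p-values. In near-constant genes (81.6%) the deposited spread is at or under 0.01 and need not be that between rats. The eBayes step also draws each gene's variance toward those of all genes, these included.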

Additional observations from a re-analysis of the deposited data

Results flagged for a closer look

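In 29 probe sets of the named genes, each diet's 5 livers were searched for a highest or lowest liver set off from the next by over 0.71 of the whole range. Of 58 groups, 8 held such a liver, where chance flags about 1 in 20, or 2.9 here if groups were independent, which they are not. Control animal 11 was low for Hsd17b2 (ratio 0.7898), at 11.52 against 12.41 to 12.65 in the other controls. It was also low for Nr1d2 (0.7474) and Dbp (0.8336) and high for Bmal1 (0.8058). For Hsd17b4 it was low as well (0.7574), within a range that has no measurable size. Seasoned animal 13 was low for probe set 1398310_at of Akr1d1 (0.8544), at 9.04 against 9.51 to 9.59 in the other seasoned livers. Control animal 2 was low for Amacr (0.753), at 11.47 against 11.75 to 11.84, and seasoned animal 10 was high for the near-constant Hsd17b13 (0.7189).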

How the results depend on the processing

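The difference of Hsd17b2 was below 0 in all 22 alternatives run (a restriction to varying genes, a filter on dim probe sets, repeated quantile normalization, median centring, trend and robust variance, other probe set rules, animal number as covariate, the animal-set block, each animal set alone, assumed pairs, and each liver left out). It moved by more than the pooled SD within the groups (0.60) within animals 1 to 7 (-2.49) and within animals 8 to 14 (-0.93), and lay between -2.06 and -1.63 with 1 liver left out. The gene filters, the variance settings and the assumed pairs cannot change this difference. Nor can the probe set rules, since Hsd17b2 has only 1 probe set. The gene was also chosen by this difference, so nothing is read from the count of 22. The sign of Ugt2b1 held in the same 22, from 0.02 to 0.23, while Akr1d1 changed sign in 4 of 22 (from -0.44 to 0.12) and Hsd17b10 in 7 of 22 (from -0.03 to 0.05). Over all genes limma called 0 genes, also with the Welch statistic, and between 0 and 5 with 1 liver left out, the 5 without control animal 11. Among varying genes it called 4 (fewer genes tested), and 12 with the animal-set block added, an alternative chosen after seeing the data. Pathway genes called stayed at 0 in each alternative. Of the 5 genes most like Hsd17b2, 3 were among the 5 most like it with diet means removed and 4 without control animal 11. The labels state no pairs and the diets share no animal number. With neighbouring numbers (1 and 2, 4 and 5, and so on) assumed as 5 pairs, chosen after seeing the data, Hsd17b2 differed by -1.79 ± 0.48, Hsd17b10 by 0.02 ± 0.02, and 0 genes were called. Near-constant genes cannot show a change in these values.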
